A study of Mus musculus with 1037 samples.

Results

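The keratin genes of the mouse were followed across the sorted cells of the hair follicle. They were taken as every row of the counts table whose Ensembl identifier belongs to a protein-coding gene with a symbol of Krt, a number and at most 1 further letter, so that the keratin-associated proteins were not included. The rule found 54 keratins among the 55335 genes of the table, 28 of type I and 26 of type II. In GRCm39, 27 of the type I genes lie together on chromosome 11 between positions 99123587 and 100160697. All 26 type II genes lie on chromosome 15 between 101245325 and 101912917, and the type I gene Krt18 lies beside them at 101936615 to 101940462. By the layer of skin they are known from, 4 were basal and bulge keratins, 5 were keratins of the companion layer, inner bulge and outer root sheath (ORS), 8 were suprabasal keratins of the upper follicle and epidermis, 7 were inner root sheath keratins and 16 were hair shaft keratins. A further 5 were keratins of simple epithelia and Merkel cells, and 9 belonged to none of these groups.

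Keratins are the intermediate filament proteins of epithelia, and a filament is built from pairs of 1 acidic type I and 1 basic type II protein. Basal cells of the epidermis and ORS cells make Krt5 with Krt14, and stem cells of the bulge also make Krt15. Layers further inside the follicle use other pairs, among them Krt6a with Krt16 or Krt17 in the companion layer and inner bulge, Krt71 to Krt73 with Krt25 to Krt28 in the inner root sheath, and the hair keratins in the shaft itself.

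The libraries were Smart-seq2 libraries of single sorted cells from the back skin of wild type mice, at late growth (AnaVI), at CatVI and at CatVII of the regression phase, catagen. AnaVI cells came as LOS from the lower ORS and as MOS and UOS from the upper-middle ORS. CatVI cells of the upper ORS came on 6 plates titled P17f, named PhagoHFSC or NonPhagoHFSC and alive or apop (apoptotic), and CatVII cells of the upper ORS as OSalive and OSapop. The study's methods give a gate on cells negative for Sca1 and for lineage markers (CD31, CD117, CD140a, CD45) and positive for CD34 and Itga6. Annexin V and DAPI set live cells apart, and upper and lower follicles were separated mechanically. The study also describes its catagen cells of the upper ORS as stem cells high and progenitor cells low in CD34, both positive for Itga6. No transgene or treatment is named for any of these cells, and the labels give no age other than the 17 in the titles of the CatVI plates. Cells of several mice were pooled at each stage and no animal is named. Each sort or plate is therefore 1 sample without replicates, no test between them was possible, and all intervals below are exact 95% intervals that cover counting error only.

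A cell was kept where at least 2000 genes had a count, which left 39 LOS, 38 MOS and 92 OSapop cells. UOS kept 83.6% of its cells and OSalive 80.1%. Of the CatVI plates, pl1 kept 19 cells, pl2 kept 9, pl5 kept 15 and pl6 kept 14, while pl3 and pl4 kept none of 67 and 57. Gene counts summed to between 1840012 on pl6 and 287377663 in OSalive. Between 56.3% and 66.5% of all gene counts fell in 1 ribosomal RNA gene in each sort, and between 16.6% and 21.1% in protein-coding genes. Well labels that occurred in 2 cells numbered 40 in UOS, 68 in OSalive and 52 in OSapop. Against the labels, Itga6 was counted in 94.6% of the UOS, 96.0% of the OSalive and 94.6% of the OSapop cells. Cd34, the other gate marker, was counted in 94.6%, 68% and 68.5% of these cells, but in 1 cell on each of the 4 CatVI plates, 5.26% to 11.1% of the cells, where Itga6 was in 46.7% to 84.2%. The 6 fibroblast markers examined summed to 1405 CPM, counts per 1000000 gene counts, in LOS, against 353.5 in UOS, 14.7 in MOS, at most 45.9 on a CatVI plate, 188.7 in OSalive and 186.5 in OSapop. In LOS, 13 of the 39 cells held at least 2 of these markers at 10 or more counts, as did 7 UOS cells, 32 OSalive cells and 13 of 92 OSapop cells, although the CD140a gate should remove such cells. They held 36.3% of the keratin counts of LOS, 10.8% of those of UOS, 27.2% of those of OSalive and 11.3% of those of OSapop. Keratins made 0.113% of the gene counts of the 13 LOS cells and 0.24% of those of the other LOS cells, against 0.269% and 0.254% in OSalive. Melanocyte markers summed to 165.1 CPM on pl2 and were higher still in LOS, against 4.56 to 43.7 in the other sorts. Endothelial markers were at 64.1 CPM in LOS and 52.5 on pl1 and at most 7.81 elsewhere, and immune markers at 25.3 in LOS and at most 6.54 elsewhere.

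Of the 54 keratins, 49 had at least 1 count, 31 had 100 counts or more over all passing cells, and 14 reached 50 CPM in at least 1 sort. The 14 were Krt5, Krt14 and Krt15 of the basal and bulge group, Krt17, Krt6a and Krt75 of the companion group, Krt80, Krt77 and Krt79 of the upper follicle group, and Krt71, Krt25, Krt27, Krt73 and Krt28 of the inner root sheath group. No hair shaft keratin, no simple epithelial keratin and none of the 9 others reached that level. Krt20, Krt40, Krt76, Krt82 and Krt9 had no count in any passing cell.

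Together the keratins made 0.469% of the gene counts in UOS (95% interval 0.467 to 0.471), 0.398% in MOS (0.394 to 0.402) and 0.17% in LOS (0.168 to 0.173). On the CatVI plates the share was 0.684% on pl5, 0.301% on pl6, 0.273% on pl1 and 0.141% on pl2. OSalive had 0.258% and OSapop 0.302%. The order ran from pl5 at the top to pl2 at the bottom, and the 4 plates of CatVI covered the whole range of the series. The lowest shares, those of pl2 and LOS, were in the sorts with the highest melanocyte markers, whose part in them was not tested. Shares of RNA are relative: fewer cells that make a keratin and less keratin RNA per cell cannot be told apart in a sum over cells, so the shares of cells with a count are given for the main genes.

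**Figure D1:**
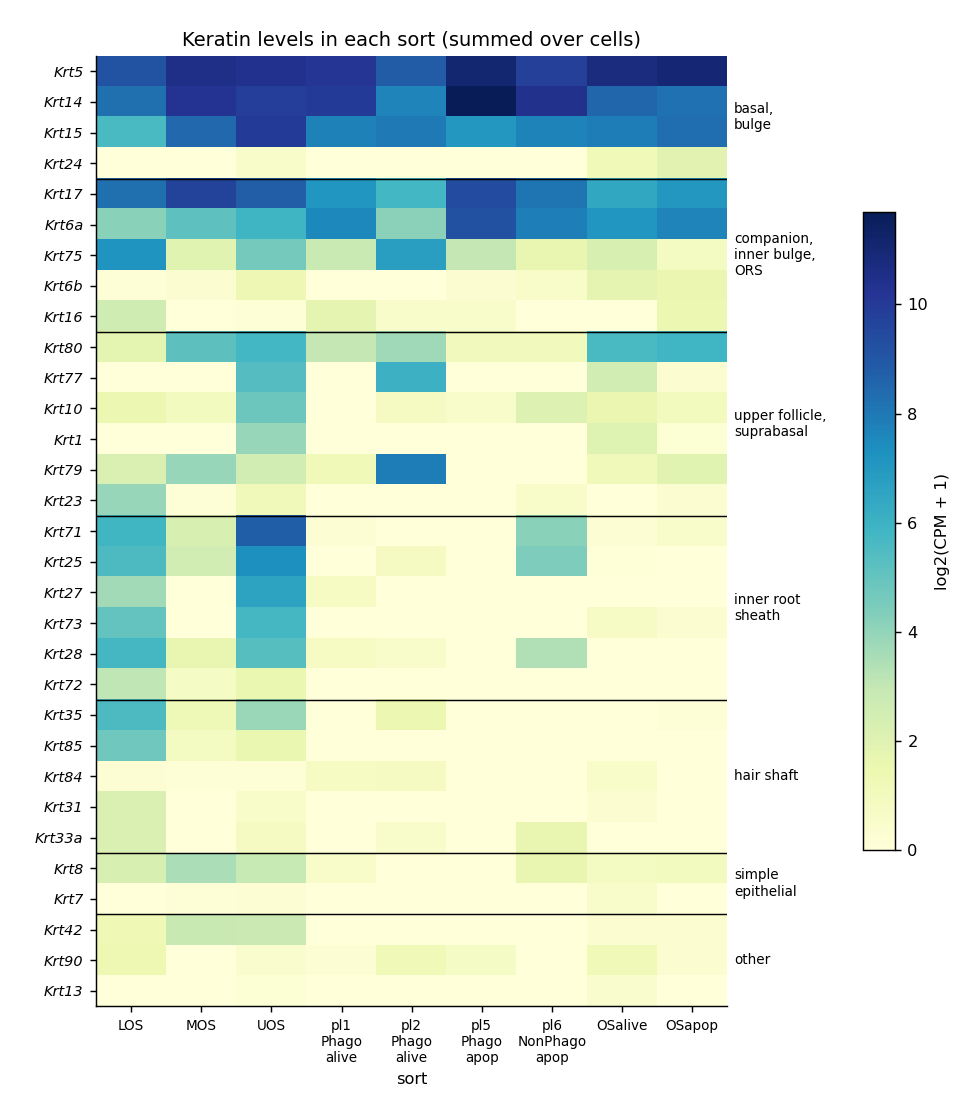
Level of each keratin with 100 or more counts (rows, grouped by layer) in each sort or plate (columns), as log2 of CPM plus 1 over the summed cells. Krt5, Krt14 and Krt15 are dark in nearly every column, while the inner root sheath rows are dark in LOS and UOS and pale in CatVII.

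Krt5, the type II keratin of basal cells, was the most even member. It was at 1432 CPM in MOS (95% interval 1407 to 1458), 1286 in UOS (1278 to 1295) and 547 in LOS (533 to 561). On the CatVI plates it was at 2133 on pl5, 1152 on pl1, 881 on pl6 and 459 on pl2. OSalive had 1682 (1677 to 1687) and OSapop 2020 (2009 to 2030). Krt5 was counted in every passing cell of MOS, UOS, pl5, pl6, OSalive and OSapop, in 38 of 39 LOS cells, in 17 of 19 on pl1 and in 6 of 9 on pl2. The cell medians were 1352 CPM in UOS (range 91.6 to 3617), 1638 in OSalive (171 to 3511) and 1948 in OSapop (261.3 to 4042). The cells of the AnaVI and CatVII sorts thus overlapped over nearly their whole range.

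Krt14, the usual type I partner of Krt5, did not follow it. It was at 1236 CPM in MOS (1213 to 1260), 914 in UOS (907 to 921) and 303 in LOS (293.1 to 314.1). CatVI held both its highest and its lowest value, with 3317 on pl5 (3264 to 3371), 1353 on pl6, 1016 on pl1 and 200 on pl2. In CatVII it was at 369 in OSalive (366 to 371) and 292.6 in OSapop (288.7 to 296.5), levels close to LOS. The cell median was 890.3 CPM in UOS (range 0 to 2972), 273.4 in OSalive (0 to 1758) and 253.7 in OSapop (0 to 1412). Krt14 was counted in 99.1% of UOS cells, 93.6% of OSalive and 87% of OSapop cells, so that the lower level went with fewer counts in most cells more than with fewer cells. After each cell was thinned to 50000 gene counts, these shares were 97.3%, 89.5% and 88.2%.

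Krt15, the type I keratin by which bulge stem cells are often recognised, differed among the AnaVI sorts. It was at 997 CPM in UOS (989.8 to 1005), 350.2 in MOS (338 to 363) and 48.9 in LOS (44.8 to 53.3). It was counted in 96.4% of UOS cells, in 23 of 38 MOS cells and in 21 of 39 LOS cells, and the thinned shares were 94.6%, 56.2% and 43.5%. Pooled over the CatVI plates Krt15 was at 192.1 CPM (184.9 to 199.4), from 132.8 on pl5 to 247.7 on pl2, and in OSalive and OSapop it was at 231.2 and 308. All but a few CatVII cells held it, 96.8% in OSalive and 97.8% in OSapop, at cell medians of 246.6 and 296.6 CPM against 994 in UOS. Krt24, the remaining gene of the group and also of type I, stayed at or below 2.71 CPM in every sort.

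Because a filament needs both types, the type I share of the keratin counts was computed after each count was divided by the length of the gene's canonical transcript. Type I keratins made 67% of the keratin counts per kb in MOS, 63.8% in UOS and 56.9% in LOS. They made 67.4% on pl6, 65.3% on pl5, 55.8% on pl1 and 43.1% on pl2. In CatVII the share was 31.7% in OSalive and 29.3% in OSapop, below every other sort. The 2 CatVII sorts lay close together, and pl2, with 9 cells, was the nearest of the rest.

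The same difference was seen cell by cell. The median type I share was 67.1% in the 150 AnaVI cells of MOS and UOS (quartiles 62.2 and 71.2), 57.5% in the 54 CatVI cells with keratin counts (48.3 and 65.7) and 31.1% in the CatVII cells (23.7 and 36.9). The quartiles of CatVII lay below those of the pooled AnaVI and CatVI cells, but single CatVI plates overlapped with them: the quartiles were 35.1 and 60.6 on pl1 and 26.2 and 51.4 on pl2, against 24.6 and 39.1 in OSalive. The full ranges of the stages overlapped too, from 33.2% to 84.7% in AnaVI and from 8.84% to 63.9% in CatVII. Within the basal pair alone, Krt14 made 47% of the summed Krt5 and Krt14 counts per kb in AnaVI, 60.6% in CatVI and 19.7% in CatVII. Krt14 exceeded Krt5 per kb in 34% of the AnaVI cells, in 51% of the CatVI cells with 10 or more counts of the pair and in 2.76% of the CatVII cells.

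The type I share over the summed AnaVI cells was 58.1% without the division by length and 65.6% with every cell thinned to 50000 gene counts, and the CatVII share was 26.2% and 31% by the same measures. Without the cells that held inner root sheath keratins, described below, the shares were 68% and 31.1%. Type I transcripts are shorter than most type II transcripts, and over the protein-coding genes compared between CatVII and AnaVI the median log2 ratio was -0.625 for transcripts of 1500 to under 2000 bases and -0.375 for 2000 to under 2500 bases. The part of transcript length in the keratin shares was not tested. Stage, sort and library preparation cannot be told apart here.

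**Figure D2:**
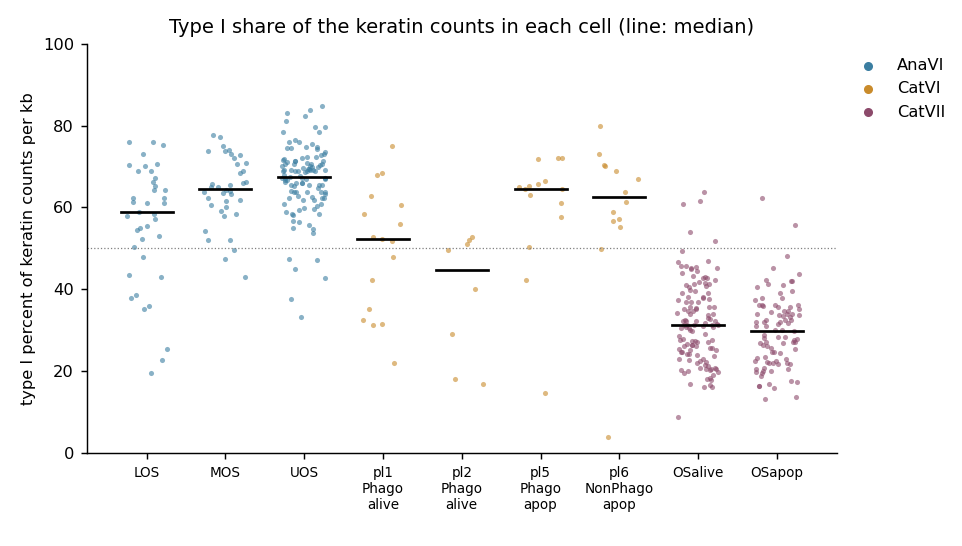
Percent of a cell's keratin counts per kb that came from type I keratins, 1 point per cell, with the median as a black line and a dotted line at equal shares. The medians of OSalive and OSapop, at 31.3% and 30%, lie below those of all other sorts, which run from 44.8% to 67.5%.

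**Figure D3:**
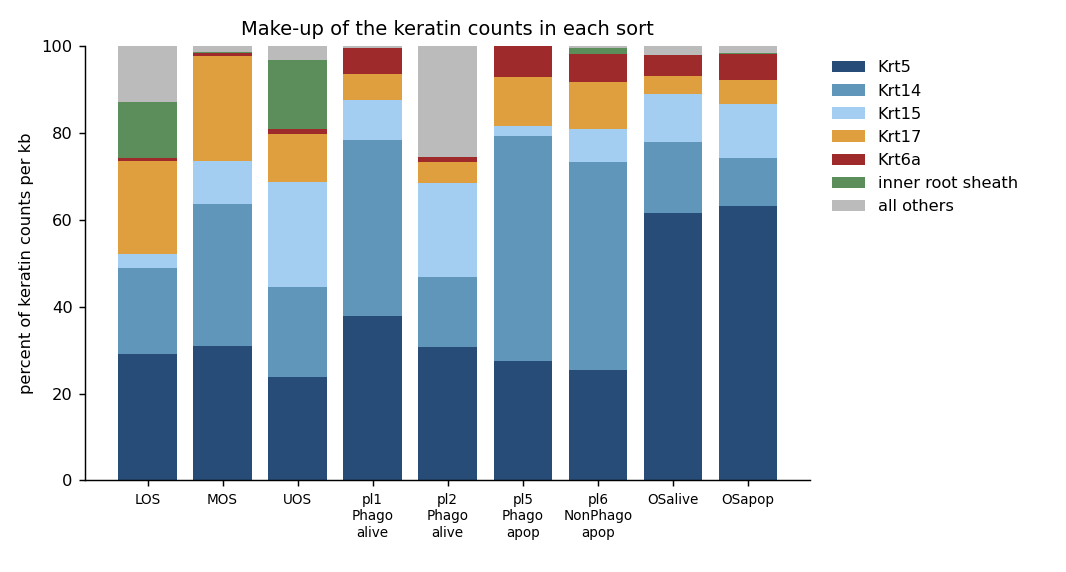
Make-up of the keratin counts per kb of each sort or plate, in percent. Krt5 takes 61.5% in OSalive and 63.1% in OSapop and between 23.9% and 37.8% elsewhere, and the inner root sheath keratins are visible in LOS and UOS.

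Krt17, a type I keratin of the ORS that is also induced in wounded skin, was high through AnaVI. It was at 842 CPM in MOS (823 to 862), 449 in UOS (444 to 454) and 301 in LOS (291.1 to 312). On the CatVI plates it was at 663 on pl5, 278.3 on pl6, 136.6 on pl1 and 54.8 on pl2, where 1 cell held 98.4% of its counts. In CatVII it was at 84.1 in OSalive and 132.3 in OSapop. Here the share of cells differed too: Krt17 was counted in 95.5% of UOS cells (thinned 90.1%) and 94.7% of MOS cells (90.6%), but in 49.6% of OSalive cells (25.8%) and 50% of OSapop cells (47.1%). The cell median was 303 CPM in UOS, 0 in OSalive and 0.401 in OSapop, and the highest CatVII cells reached 1087 and 1624 CPM, inside the range of the AnaVI cells.

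Krt6a, the type II keratin of the companion layer and inner bulge, ran the other way. It was at 17.1 CPM in LOS (14.7 to 19.7), 34.8 in MOS (30.9 to 38.9) and 59.9 in UOS (58.1 to 61.8). Among the CatVI plates pl5 had 581 (559 to 604), pl1 187.8, with pl6 between them, while pl2 had 16.8. OSalive had 137.9 (136.5 to 139.2) and OSapop 199.4 (196.2 to 202.7). Krt6a was counted in 13 of 15 cells on pl5. In UOS the share of cells was 55.4% (thinned 37.8%), against 67.2% (57.3%) in OSalive and 55.4% (52.9%) in OSapop. The thinned share was thus larger than that of UOS in both CatVII sorts, and the unthinned share only in OSalive. Of the 31-base words of the Krt6a transcript, 49.3% also occur in Krt6b, so counts may have been split between these genes. Words shared with any other gene made 27.3% of those of Krt14, 14.7% of Krt17, 12.8% of Krt5 and 3.89% of Krt15. The shares were 49.7% for Krt16 and 32.3% for Krt8, so the same limit holds for these genes. Krt6b itself stayed at or below 2.43 CPM in every sort.

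Krt75, the type II keratin that marks the companion layer, was highest in LOS at 143.3 CPM (136.3 to 150.7) and in 21 of its 39 cells. It was at 24 in UOS, 2.81 in MOS and 3.80 or less in CatVII. On pl2 it reached 108.2 CPM (95.1 to 122.6), from 4 of 9 cells, of which 2 held 96.7% of the counts. Krt16, the wound-linked partner of Krt6a, was at 5.13 CPM in LOS and 1.78 in OSapop, in each case from 1 cell, at 2.37 on pl1 from 2 cells and below 1 CPM in the other sorts.

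**Figure D4:**
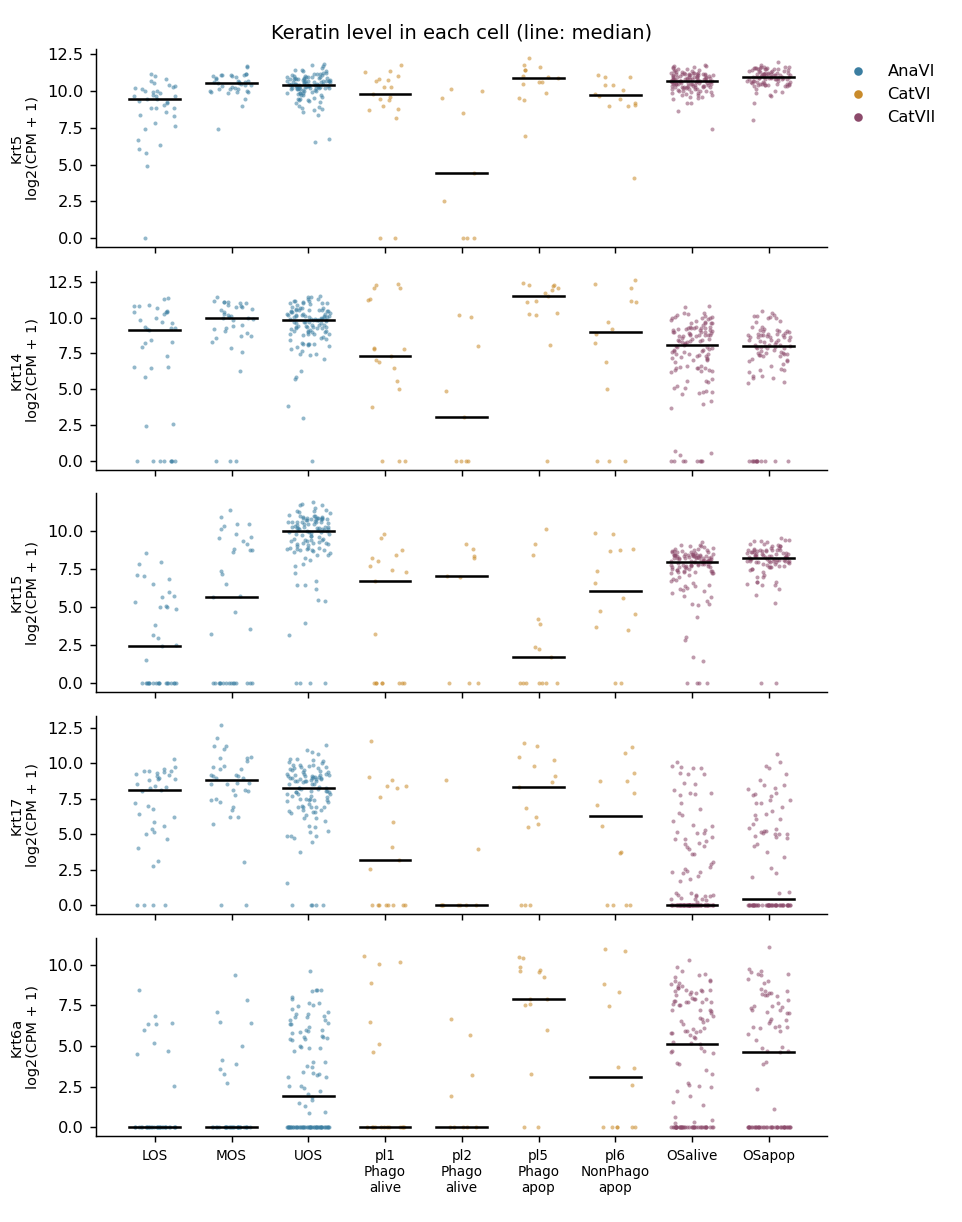
Level of Krt5, Krt14, Krt15, Krt17 and Krt6a in every passing cell of each sort, as log2 of CPM plus 1, with the median as a black line. Krt17 has its median at 0 in OSalive and at 303 CPM in UOS, and Krt15 its highest median in UOS.

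Krt80, a type II keratin of differentiating epithelial cells, was at 53.4 CPM in UOS (51.7 to 55.2), 35.1 in MOS and 2.52 in LOS (1.66 to 3.67). It was at 49.3 in OSalive and 57.4 in OSapop, levels like that of UOS, but between 1.09 and 12.4 on the CatVI plates. It was counted in 68.8% of UOS, 72% of OSalive and 63% of OSapop cells, and in 9 of 57 CatVI cells (15.8%). Thinned, the shares were 55%, 58.1%, 56.5% and 11.3%. All 4 CatVI plates were below MOS, UOS, OSalive and OSapop, and LOS lay within their range.

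The other keratins of the upper follicle came from few cells. Krt79, a type II keratin of the follicle's opening, was at 232.7 CPM on pl2 (213.3 to 253.5) and at 14.2 or less elsewhere. The Krt79 counts of pl2 came from 2 of its 9 cells, at 1577 and 1241 CPM. Both of these cells also held Krt77 at 420 and 386 CPM and Krt14, with no count of Krt5. Elsewhere Krt77 reached 40.5 CPM in UOS, where 1 cell held 98.6% of its counts, and 4.73 in OSalive. That UOS cell also held 1649 Krt10 counts and 925 Krt1 counts, 89.8% and 97.7% of those of the whole sort, and it was among the cells with inner root sheath keratins. Krt10 and Krt1, the pair of the differentiating epidermis, were at 1.85 and 3.14 CPM in OSalive and at 0.972 and 0.137 in OSapop. Krt23 was highest in LOS at 14.1 CPM, and Krt2 and Krt78 stayed at or below 0.863 CPM.

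The inner root sheath keratins gave the sharpest contrast between sorts and the most uneven spread over cells. Summed, they were at 782 CPM in UOS (775 to 789), 210.6 in LOS, 46.7 on pl6 (37.4 to 57.7) and 11.5 in MOS. On pl1, pl2 and pl5 they were at 1.64, 1.32 and 0 CPM, and in OSalive and OSapop at 0.877 and 0.739. Krt71 alone, a type II member, was at 432 CPM in UOS (427 to 437), 56.5 in LOS and 0.452 or less in CatVII. Its type I partners Krt25 and Krt27 were at 159.3 and 97.2 CPM in UOS and at 46.5 and 11.8 in LOS. Krt73 and Krt28 were at 52.3 and 38.8 CPM in UOS and at 30.9 and 51.9 in LOS.

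In UOS, 2 cells held 93.1% of the Krt71 counts. Cells with 3 or more of these keratins at 10 or more counts numbered 6 of 39 in LOS, 10 in UOS, which is 8.93% of its cells, 1 of 14 on pl6 and 0 in CatVII. All 10 of the UOS cells also held Krt5 and Krt14 at 10 or more counts. In the first of them, 34148 inner root sheath keratin counts made 91.5% of the cell's keratin counts, beside 870 counts of Krt5, 602 of Krt14, 931 of Krt15 and 6312 of Tchh (trichohyalin, a protein of the inner root sheath). In the UOS cell with the fewest, 88 such counts made 5.29%. The cells ranked 2 and 3 by these counts had 13735 and 17256 detected genes, against a median of 5367 in UOS. Whether a well held 1 cell or more than 1 was not tested here.

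The 7 inner root sheath keratins lie in 2 neighbouring groups, Krt71, Krt72 and Krt73 on chromosome 15 and Krt25 to Krt28 on chromosome 11. In the cells picked for 3 or more of them, several appeared together, but not always the same ones. Krt72 had no count in the UOS cell ranked 1, and Krt71, Krt72 and Krt73 had none in the UOS cell ranked 13. The 100 bases before the annotated start of each canonical transcript were read from the GRCm39 sequence. The motif TATAAA, the core of a TATA box, was found on the gene's strand in 6 of these 7 windows, in 21 of the 54 keratin windows (38.9%) and in 934 of those of 21770 protein-coding genes (4.29%). On either strand it was in 40.7% of keratin windows and 5.55% of all. Among the other keratins it was in 9 of 16 hair shaft windows and in 0 of 4 basal and bulge windows on the gene's strand. A match is a description of the letters and not a measured site. The windows of the 7 genes follow, with that of Krt5, present in nearly every cell, for comparison. Each is written 5′ to 3′ on the gene's strand, here the minus strand, with TATAAA in capitals where it occurs. They are, in the order shown, chr15:101651545-101651644, chr15:101694964-101695063, chr15:101710803-101710902, chr11:99213778-99213877, chr11:99228793-99228892, chr11:99241931-99242030, chr11:99265736-99265835 and chr15:101621347-101621446.
Krt71: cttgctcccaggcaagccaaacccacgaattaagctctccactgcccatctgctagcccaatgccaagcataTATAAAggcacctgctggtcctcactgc
Krt72: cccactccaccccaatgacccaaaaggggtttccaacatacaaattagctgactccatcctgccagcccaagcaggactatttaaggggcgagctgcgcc
Krt73: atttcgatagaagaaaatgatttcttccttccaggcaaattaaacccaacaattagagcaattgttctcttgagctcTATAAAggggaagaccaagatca
Krt25: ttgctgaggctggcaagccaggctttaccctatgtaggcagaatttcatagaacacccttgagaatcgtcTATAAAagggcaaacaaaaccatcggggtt
Krt26: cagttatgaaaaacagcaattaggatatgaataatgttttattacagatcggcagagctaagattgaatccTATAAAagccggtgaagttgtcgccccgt
Krt27: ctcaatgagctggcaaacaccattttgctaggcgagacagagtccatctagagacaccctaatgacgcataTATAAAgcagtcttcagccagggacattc
Krt28: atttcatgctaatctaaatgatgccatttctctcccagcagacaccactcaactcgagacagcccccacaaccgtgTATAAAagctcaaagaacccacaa
Krt5: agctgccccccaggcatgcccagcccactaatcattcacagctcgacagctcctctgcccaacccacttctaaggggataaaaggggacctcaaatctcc
The 6 matches began 23 to 30 bases before the start, and the windows of Krt72 and Krt5 hold none.

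Hair shaft keratins were at 97.9 CPM in LOS, 18.5 in UOS, 3.63 in MOS, at most 4.86 on a CatVI plate and below 1 CPM in CatVII. Krt35 and Krt85, which are among the first hair keratins to appear above the matrix, had the most counts. Krt35 was at 45.2 CPM in LOS, where 1 cell held 86.6% of its counts, and at 13.6 in UOS. Krt85 was at 25.8 CPM in LOS, from 10 of 39 cells, and at 1.99 in UOS. Cells with 3 or more hair shaft keratins at 10 or more counts numbered 3 in LOS and 1 in UOS. Of the simple epithelial keratins, Krt8 was at 10.4 CPM in MOS, 6.47 in UOS and 3.83 in LOS and below 1 CPM in CatVII, and Krt7 stayed at or below 0.456 CPM. The other Merkel cell markers summed to at most 1.77 CPM in any sort. In the remaining group, Krt42 was at 6.32 CPM in MOS and 5.88 in UOS, and Krt90 reached 1.59 in LOS.

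The comparison of LOS with UOS asked how the lower ORS differed from the upper-middle ORS within AnaVI. Of the 23 keratins with 100 or more counts over both sorts, 13 were at least 2-fold lower in LOS, 5 at least 2-fold higher and 5 within 2-fold. Among all genes compared, 14.3% were lower and 14.1% higher by that measure. Without the cells with 3 or more inner root sheath keratins the split turned, with 4 lower and 7 higher. The median log2 ratio of the keratins was -1.59 (keratins at 0 in LOS entered with a floor of 3 counts), against 0.041 over all genes. Lower in LOS were all 3 abundant basal and bulge keratins, with log2 ratios of -4.35 for Krt15 (-4.48 to -4.23), -1.59 for Krt14 (-1.64 to -1.54) and -1.23 for Krt5 (-1.27 to -1.20). Krt80 was lower by a log2 ratio of -4.41 and Krt6a by -1.81. Krt77 and Krt1 had no count in LOS and were at least 144.6-fold and 49.5-fold lower there, against a floor of 3 counts over the sort, but rested on 1 UOS cell.

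Higher in LOS were Krt85 at a log2 ratio of 3.69 (3.39 to 4.0), Krt23 at 3.50 (3.11 to 3.90), Krt75 at 2.58 (2.47 to 2.68), Krt72 at 1.90 and Krt35 at 1.73. Krt35, with most of its LOS counts in 1 cell, was at -0.62 without the cells that held 3 or more inner root sheath keratins and at -0.52 without the cells with fibroblast markers. Krt71, Krt25 and Krt27 were lower in LOS at -2.94, -1.78 and -3.05, and without the cells that held 3 or more inner root sheath keratins they were higher, at 3.42, 2.10 and 2.65. Over all settings tried, Krt15 stayed between -4.77 and -3.77 and Krt75 between 2.29 and 5.16, while Krt5 ran up to -0.72 without the cells with fibroblast markers and Krt14 up to -0.50 as a mean over cells. Sums in LOS gave much weight to a few deep cells: 1 cell held 27.6% of the Krt5 counts.

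Within the upper-middle ORS, 14 of 22 keratins were at least 2-fold lower in MOS than in UOS and 1 was higher, against 23.2% and 6.56% of all genes, with a median log2 ratio of -2.11 against -0.306. The abundant members were close: Krt5 differed by 0.16, Krt14 by 0.44, Krt17 by 0.91 and Krt6a by -0.79. Krt15 was lower in MOS at -1.51 (-1.56 to -1.46). The others at least 2-fold lower in MOS were Krt71, Krt25, Krt28, Krt72, Krt27 and Krt73 of the inner root sheath, Krt77, Krt1 and Krt10, Krt75, Krt6b, Krt35 and Krt85. Most UOS counts of the inner root sheath keratins and of Krt77, Krt1 and Krt10 sat in the few cells named above. Without the cells with 3 or more inner root sheath keratins, 4 keratins were lower and 2 higher in MOS. Krt25, Krt71 and Krt72 then turned to 0.77, 1.47 and 4.29. Krt15, Krt35, Krt6b and Krt73 stayed at least 2-fold lower under every setting that gave a ratio. Krt79 was higher in MOS at 1.64, with 92.6% of its counts in 1 cell, and was at -0.65 when the top cell was left out of both sorts.

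CatVI, with the 4 plates together, was compared with MOS and UOS together as AnaVI. The same AnaVI cells also serve as the reference for CatVII below, as UOS served for both LOS and MOS, so these comparisons are not independent of each other. Of 22 keratins, 16 were at least 2-fold lower and 2 higher, against 24.4% and 13.1% of all genes. Without the inner root sheath keratin cells 9 were lower and 4 higher, and with MOS alone as the reference 2 were lower and 4 higher. The median log2 ratio was -3.29 against -0.172. Krt6a was higher at 2.35 (2.29 to 2.41), and it stayed between 1.45 and 3.07 under every setting, the lowest without pl5. Krt79 was higher at 2.76 and at -3.24 without pl2. Krt15 was lower at -2.27 (-2.32 to -2.21) and Krt80 at -3.31 (-3.66 to -2.97). With MOS alone as the reference, Krt15 was at -0.87. Krt5 differed by 0.02 (-0.01 to 0.04), Krt14 by 0.81 and Krt17 by -0.67, within 2-fold, and without pl5 these were -0.48, -0.10 and -1.77. The rest of those lower were Krt71, Krt25, Krt27, Krt28, Krt72 and Krt73, Krt77, Krt1 and Krt10, Krt35 and Krt85, Krt8, Krt42 and Krt6b. Of these Krt77, Krt1 and Krt10 rested mostly on the 1 UOS cell. Krt77 was at 2.14 without the top cell and at 5.59 without the inner root sheath keratin cells, where Krt27 was at -0.42. Krt1 was at -0.43 without the cells with fibroblast markers. With MOS alone as the reference Krt10, Krt71, Krt28 and Krt25 were at -0.40, -0.72, -0.51 and -0.76. As a mean over cells Krt6b was at -0.67 and Krt72 at -0.97. Krt73, Krt35, Krt85, Krt8 and Krt42 stayed at least 2-fold lower under every setting that gave a ratio.

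Between CatVII and AnaVI, 29 keratins could be compared. In CatVII 19 were at least 2-fold lower and 6 higher, against 24.1% and 11.5% of all genes, and the median log2 ratio was -2.39 against -0.267. Scaling by the factors of edgeR or by a median of ratios raised every log2 ratio by 0.42 and gave 19 lower and 8 higher. The split depended on the AnaVI cells: it was 10 lower and 10 higher without the cells with 3 or more inner root sheath keratins, and 6 lower and 8 higher with MOS alone as the reference. Among the abundant keratins, Krt17 was lower at -2.39 (-2.41 to -2.37), Krt15 at -1.91 (-1.92 to -1.89) and Krt14 at -1.43 (-1.44 to -1.41). Krt6a was higher at 1.4 (1.35 to 1.44), Krt5 differed by 0.43 (0.42 to 0.44) and Krt80 by -0.01 (-0.06 to 0.04). Of the 29 keratins, those lower included both types, among them Krt71, Krt73, Krt75 and Krt8 of type II, and those higher included Krt16, Krt24 and Krt13 of type I.

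Over all settings, Krt17 stayed between -3.17 and -1.90, Krt14 between -1.81 and -1.01, Krt6a between 1.23 and 2.11 and Krt5 between 0.27 and 0.84. Krt15 kept a ratio below -1 under every setting but MOS alone as the reference, where it was at -0.50. The other keratins lower in CatVII were the inner root sheath members Krt71, Krt25, Krt27, Krt28, Krt72 and Krt73, with Krt35, Krt85, Krt75, Krt8, Krt10, Krt1, Krt77, Krt79, Krt23 and Krt42. Krt1 and Krt77 were lower through 1 UOS cell, and they turned to 2.47 and 2.41 when the top cell of each was left out and to 3.65 and 4.14 without the inner root sheath keratin cells. With MOS alone as the reference Krt10, Krt75 and Krt73 turned to 0.83, 0.19 and 0.71. Krt28 had no count in CatVII and was at least 4171-fold lower against the floor. Krt27 had 1 count there, at a log2 ratio of -14.93 (-20.23 to -12.45). The size of these differences rested on few cells, since 1 UOS cell held 4765 of the Krt27 counts and another held 1332 of the Krt28 counts, and with thinned cells the log2 ratios were -6.32 and -5.49. The other 5 higher ones, Krt16, Krt84, Krt24, Krt90 and Krt13, were all at or below 1.58 CPM in CatVII, and Krt16 was at -1.25 without the top cell and Krt84, Krt90 and Krt13 at -2.93, -0.36 and -3.25 with OSapop alone. With cells thinned to 50000 gene counts, 8 keratins with enough counts were past 2-fold in place of 25. The minimum of counts held for the thinned sums too, so a keratin could leave this count without a smaller ratio. Thinned, Krt35 was at -6.23 and Krt85 at -3.05, while Krt72 was at -0.96 and Krt24 at 0.72.

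**Figure D5:**
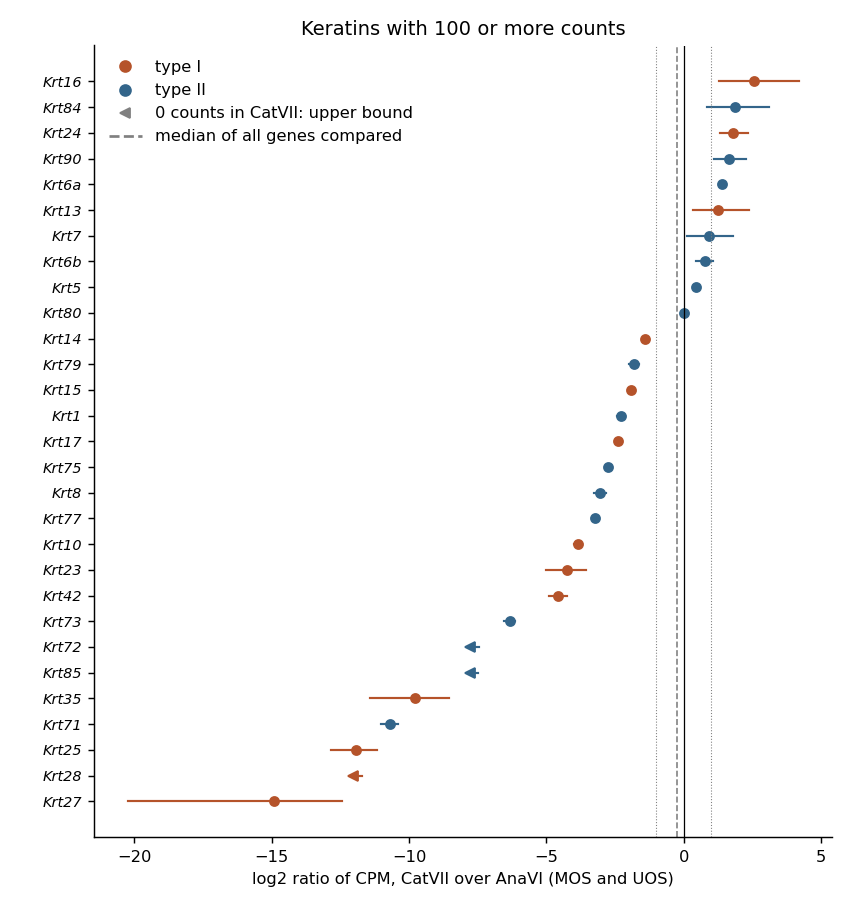
Log2 ratio of CPM in CatVII over AnaVI for the 29 keratins with 100 or more counts, orange for type I and blue for type II, with 95% intervals of counting error. Dotted lines mark 2-fold, the dashed line the median of all genes (-0.267), and triangles the upper bound for keratins at 0 in CatVII. Krt17, Krt15 and Krt14 lie left of the 2-fold line and Krt6a right of it.

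OSapop and OSalive, the sorts labelled apoptotic and alive at CatVII, differed little in their main keratins. Of 20 keratins, 8 were at least 2-fold lower in OSapop and 3 higher, against 11.3% and 10.6% of all genes, with a median log2 ratio of -0.339 against 0.119. All 6 abundant members were within 2-fold, from -0.33 for Krt14 (-0.35 to -0.31) to 0.65 for Krt17 (0.62 to 0.69). Krt5 differed by 0.26, Krt80 by 0.22, Krt15 by 0.41 and Krt6a by 0.53. The keratins past 2-fold were all at or below 4.73 CPM in both sorts. Lower in OSapop were Krt84, Krt7, Krt13, Krt1, Krt77, Krt90, Krt75 and Krt73, and of these Krt84, Krt7 and Krt13 had 1 count there. Higher were Krt16 from 1 cell, Krt79 at 1.19 and Krt24 at 1.06. With cells thinned to 50000 gene counts 0 keratins with enough counts were past 2-fold. Krt16, Krt13 and Krt90, then below the minimum of counts, were at 1.28, -1.19 and -1.04, and Krt75, Krt7 and Krt24 at -0.36, -0.19 and 0.06.

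At CatVI the plates labelled apop differed more from those labelled alive. Of 8 keratins with enough counts, 3 were at least 2-fold higher on the apop plates and 3 lower, against 9.06% and 18.9% of all genes. The median log2 ratio was 0.182 against -0.199. Krt17 was higher at 2.29 (2.18 to 2.40), Krt14 at 1.82 (1.78 to 1.86) and Krt6a at 1.80 (1.70 to 1.90). Krt5 differed by 0.90 and Krt15 by -0.53. Without pl5 the ratios were 1.30 for Krt17, 0.80 for Krt14 and 0.74 for Krt6a, so the calls of Krt14 and Krt6a rested on that plate. Krt79, Krt77 and Krt75 were lower, and these calls rested on pl2. That plate held 527 of the 534 Krt79 counts of the alive plates and all of their Krt77 counts. Without pl2 Krt75 was at -0.12 and Krt79 at -1.43, the latter with too few counts to be compared. The plates also differ by the Phago label: both alive plates with passing cells are PhagoHFSC plates, and the apop plates are 1 of each kind.

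Across cells within a sort, the keratins of the basal pair went together in UOS and not in CatVII. The Spearman correlation of Krt5 with Krt14 was 0.58 in UOS, 0.06 in OSalive and 0.10 in OSapop, over all passing cells. Krt15 ran against Krt17 in all 3 sorts, at -0.31, -0.27 and -0.32. Krt15 went with Krt80 at 0.32 in UOS, 0.40 in OSalive and 0.15 in OSapop. These values describe cells that share 1 pool and their CPM totals, and are given without a test.

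Genes that anchor or accompany keratin filaments were read from a list of 20, of which 19 were found. In LOS against UOS, 5 of 17 were at least 2-fold lower and 1 higher, against 14.3% and 14.1% of all genes. The lower ones were Dsp, Dst, Evpl, Ppl and Pkp3, which encode plaque proteins of desmosomes and hemidesmosomes, and the higher one was Vim, the intermediate filament of mesenchymal cells, at 39 CPM against 6.44. Dsp, which ties keratin filaments to desmosomes, was at 202.7 CPM in LOS and 547 in UOS, a log2 ratio of -1.43 (-1.49 to -1.37). The Vim difference stood beside the fibroblast markers of LOS, and their part in it was not tested. In CatVI against AnaVI, Dsp at 1.04 and Vim at 2.49 were higher of 17, against 13.1% of all genes. Dst at -1.16 and Ppl at -1.20 were lower, against 24.4%. Vim was at 0 CPM on the CatVI apop plates and at 58.5 on the alive plates, so its CatVI level came from the alive plates alone. Scaling by the factors of edgeR shifts every log2 ratio of CatVI against AnaVI by -0.21, which takes Dsp within 2-fold. The other settings were not tried for these partner genes. CatVII against AnaVI had 0 of 18 higher and 2 lower, Nes and Tchp, against 11.5% and 24.1%, with Dsp at 0.25 and Dst at 0.23. MOS against UOS had 1 higher and 2 lower of 17, against 6.56% and 23.2%. OSapop against OSalive had 0 and 1 of 16, against 10.6% and 11.3%. The CatVI apop plates against the alive ones had 0 higher and 2 lower of 14, Vim and Flna, against 9.06% and 18.9%. Outside LOS the lower shares were thus at or below those of all genes.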

How the data were processed

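Smart-seq2 libraries of single sorted cells were quantified by the study, whose processing notes name STAR 2.6, Salmon 1.4.0, R 3.6.1, Scanpy and the mouse build mm39. The estimated counts deposited by the authors, 1 column per cell and 1 row per gene, were rounded to whole numbers. The 92 ERCC rows were left out. Of 1037 samples, 1036 had a column; 1 cell with a CatVI label but an OSapop title was left unassigned, which gave 1035 cells with a sort. Cells with at least 2000 detected genes passed, 463 in all (39 LOS, 38 MOS, 112 UOS, 57 CatVI, 125 OSalive and 92 OSapop), and their gene counts were summed per sort and expressed as CPM of all gene counts. Symbols, types and coordinates came from a GRCm39 annotation that held 93.3% of the gene identifiers.

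No test was run, because each sort is 1 pool. CPM and their ratios carry exact 95% Poisson and binomial intervals, and shares of cells were also given after thinning each cell to 50000 gene counts. Genes with 100 or more counts over both groups were compared, with 2-fold as the measure. A group at 0 was given a floor of 3 counts over the group. Keratins were named where they reached 50 CPM in a sort, or as the 2 with the most counts in a class where none did. Other keratins are named where a comparison put them past 2-fold or where few cells decided a value. The members, layers and gene lists were chosen with earlier results of these data known. The ratio and interval code was tested on simulated data. The study excluded wells with several cells by a Gapdh PCR, and no doublet caller was run here. Alternatives changed the total, the scaling (median of ratios, and factors of edgeR 4.0.16 in R 4.3.3), the filters, the weight of cells, and single plates or sorts. Python 3.11.15, numpy 2.4.6, pandas 2.3.3, scipy 1.17.1 and matplotlib 3.10.9 were used.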

Additional observations from a re-analysis of the deposited data

Results flagged for a closer look

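On plate pl2, with 9 passing cells, the highest cell stood far from the other 8 in 4 of the 11 keratins examined in this way, not the same cell for each. Chance flags about 1 in 20 groups of replicates by this measure, but cells of 1 plate are not replicates and most of them held no count, so that rate does not apply here. For Krt17 the highest cell was at 457.1 CPM, with the next at 14.6. The highest cell for Krt80 was at 210.8 CPM, with the next at 18.7. For Krt25 and Krt28 the highest cells were at 8.233 and 7.325 CPM, which are 2 counts and 1 count, and with all 8 other cells at 0 the gap is fixed and says nothing about these cells.

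Outside the compared cells, the cells of pl4, none of which passed, held 8 keratin counts among 27556 gene counts, a share of 0.029% (95% interval 0.0125 to 0.0572). The cell whose title and stage label disagree held 88 keratin counts among 52544, a share of 0.167%. Krt74, annotated as a transcribed unitary pseudogene and so not among the 54 genes, had 53 counts in 2 cells, 52 of them in OSalive.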

How the results depend on the processing

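Of the 98 counts of keratins past 2-fold recomputed under another setting, 80 stayed within 1.5 times the reported count and 18 did not. LOS against UOS went from 18 to 9 with thinned cells, 29 with a minimum of 20 counts, 34 with a minimum of 1, 11 at 4-fold and 11 without the cells with 3 or more inner root sheath keratins. MOS against UOS went from 15 to 5 when thinned and 6 without those cells. CatVI against AnaVI went from 18 to 9 when thinned, 28 with a minimum of 1 count and 6 with MOS alone as the reference, and CatVII against AnaVI from 25 to 8 when thinned and 14 with MOS alone. OSapop against OSalive went from 11 to 0 when thinned, 17 with a minimum of 1 count and 5 with each gene's top cell left out. CatVI apop against alive went from 6 to 10 and 13 with minimums of 20 and 1 counts and to 3 without pl2. The thinned counts take in only keratins that still had enough counts after thinning, so their fall alone does not show that ratios shrank.

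Of 1483 log2 ratios recomputed, 43 turned in direction, in 21 of the 93 ratios past 2-fold. In LOS against UOS, Krt42 was at 1.48 as a mean over cells. Without the inner root sheath keratin cells Krt27 was at 2.65, Krt25 at 2.10, Krt71 at 3.42 and Krt35 at -0.62, and without the cells with fibroblast markers Krt35 was at -0.52. In MOS against UOS, Krt79 was at -0.65 with the top cell left out. Without the inner root sheath keratin cells Krt25 was at 0.77, Krt71 at 1.47 and Krt72 at 4.29, and without fibroblast marker cells Krt72 was at 3.42. In CatVI against AnaVI, Krt77 was at 1.14 as a mean over cells, 1.30 thinned, 2.14 without the top cell, 4.87 with MOS alone, 5.59 without the inner root sheath keratin cells and 5.58 without fibroblast marker cells, and Krt79 was at -3.24 without pl2. In CatVII against AnaVI, the mean over cells gave Krt84 -0.37, Krt1 0.88 and Krt77 0.05, and thinning gave Krt1 1.37 and Krt77 0.25. Leaving out the top cell gave Krt1 2.47, Krt16 -1.25 and Krt77 2.41. MOS alone gave Krt10 0.83, Krt75 0.19, Krt1 2.85, Krt73 0.71 and Krt77 3.44. OSalive alone gave Krt16 -1.64, and OSapop alone gave Krt13 -3.25, Krt84 -2.93 and Krt90 -0.36. Without the inner root sheath keratin cells Krt1 was at 3.65, Krt73 at 2.21 and Krt77 at 4.14, and without fibroblast marker cells Krt84 was at -3.40, Krt1 at 1.4 and Krt77 at 3.75. In OSapop against OSalive, Krt79 was at -0.87 as a mean over cells and -1.17 thinned. Apart from what leaving cells out shows by itself, the cause was not tested. The settings that leave out cells with inner root sheath keratins or fibroblast markers were chosen after seeing the data.

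Median cell depth ran from 90483 gene counts on pl6 to 2182588 in OSalive, so low keratins were less detectable in LOS, with a median of 108598, in MOS, with 148140, and on the CatVI plates than in OSalive. No paired analysis was possible because each sort is 1 pool of cells and no number ties cells of one sort to those of another one by one. The number after S in the cell titles does run on from OSalive to OSapop, in more than 1 series. Each CatVII sort thus holds more than 1 set of cells whose numbering is shared with the other sort. The labels do not say what these series stand for, and differences between them were not tested.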

Other observations

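In the cells that did not pass, the keratin share of gene counts ran from 0% to 0.504% over the sorts, and pl3 held 0 keratin counts among 1104 gene counts.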
